A study of Mus musculus with 4 samples.

Results

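The 10 genes described here are the glucocorticoid receptor gene Nr3c1 and 9 genes of glucocorticoid response or metabolism, namely Fkbp5, Tsc22d3, Zbtb16, Sgk1, Errfi1, Sult1a1, Hsd11b1, Mt1 and Mt2. They were chosen by name, and each was matched by its symbol to exactly 1 probe, so the 10 genes are 10 of 17734 genes with a fitted probe on the array. The cells were 3T3-L1, a mouse preadipocyte line that stores fat once it is induced to differentiate. In 2 samples the cells were given 13.47 µM berberine, a plant alkaloid, together with the induction mixture, and in 2 control samples, by their titles and source descriptions, they were given the mixture without berberine. The treatment protocol field names berberine for all 4 samples, the controls included, so it conflicts with the other labels, and the groups used here rest on the titles. The mixture held 0.5 mM isobutylmethylxanthine (a phosphodiesterase inhibitor that raises cyclic AMP), 1 µM dexamethasone (a synthetic glucocorticoid) and 1 µg/ml insulin, and RNA was taken after 48 hours. All 4 samples therefore had dexamethasone, and no sample without it was analysed here, so the values compare berberine with control under dexamethasone and do not measure the response to dexamethasone itself. The labels do not say that the samples came from separate cultures, so p-values speak only for the scatter among the 4 arrays, which may be technical.

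Glucocorticoids act through a receptor held in the cytosol by heat shock protein chaperones. Once hormone binds, the receptor moves to the nucleus, binds inverted repeats of a short DNA motif and raises or lowers transcription of nearby genes. In preadipocytes this is one of the signals that starts the adipogenic programme. Fkbp5 and Tsc22d3 are widely used as readouts of receptor activity, while metallothionein genes answer both to glucocorticoids and to zinc.

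Of the 10 genes, 5 were lower with berberine, 0 were higher and 5 did not pass (limma, adjusted p under 0.05 over all 26408 probes). Over all genes measured, 18.2% were called lower and 30.0% higher. At an unadjusted p under 0.05 the number higher was 0 as well. The 5 lower genes were Sult1a1, Errfi1, Hsd11b1, Fkbp5 and Nr3c1. The count lower was 3 in the deposited values and under both other scalings, 2 without berberine replicate 1 and 3 without berberine replicate 2. In 6 genes both berberine arrays lay below both control arrays, in 1 gene both lay above, and in 3 the groups overlapped. Over all genes, 28.3% had both berberine arrays below and 49.2% both above. The 3 called falls of at least 2-fold, at Sult1a1, Errfi1 and Hsd11b1, kept their direction and call under every scaling of the arrays tried. The smaller falls at Nr3c1 and Fkbp5 lost their call under each of the other scalings and turned sign after centring. Both genes stayed below the median change of all probes under every scaling. Over all genes, 11.5% were called lower and 12.9% higher with at least a 2-fold change.

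**Figure D1:**
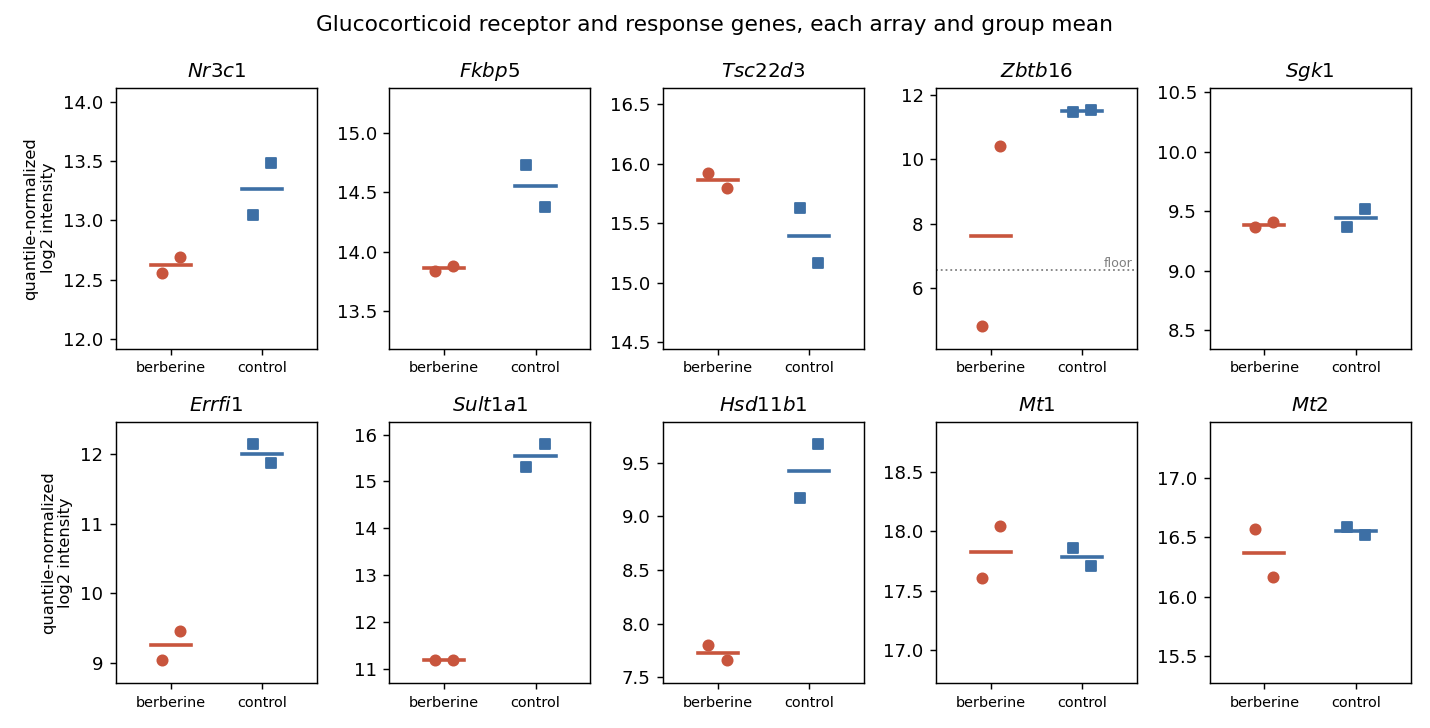
Quantile-normalized log2 intensity (vertical axis, own range in each panel, spanning at least 2 log2 units) of each of the 10 genes on each array, with berberine arrays as circles and control arrays as squares, and horizontal bars for the mean of 2 arrays. Sult1a1, Errfi1 and Hsd11b1 show groups far apart, and the dotted line marks the floor of 6.57, under which berberine replicate 1 lay for Zbtb16.

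Intensities below are quantile-normalized and linear, and log2 changes are berberine minus control with limma's standard error (SE) and n = 2 per group. The median log2 change of all probes depended on how arrays were scaled. With quantile normalization it was 0.17, and with none it was -0.05. Centring each array on its median gave 0.52 and dividing each by its 75th percentile gave 0.26. A small change is therefore read against that shift. As a floor the 25th percentile of normalized values was used (6.57 on the log2 scale). Log2 intensities correlated across probes at 0.991 to 0.994 within groups and at 0.912 or more between them.

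Nr3c1, which encodes the receptor, read 6017 and 6603 on the berberine arrays, against 8453 and 11431 on the control arrays. Both berberine arrays were lower, and the control arrays differed from each other by 0.44 on the log2 scale. The log2 change was -0.64 (SE 0.19, adjusted p = 0.0445, a 1.56-fold fall). Adjusted p was 0.156 in the deposited values, 0.237 without berberine replicate 1, 0.179 without berberine replicate 2 and 0.0866 without control replicate 2. After centring on the median the change was 0.026 (adjusted p = 0.904), so the direction of the receptor transcript was not settled. Relative to the median of all probes it was at -0.81 after quantile normalization and at -0.49 under each of the other scalings.

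Fkbp5, a co-chaperone that lowers the receptor's affinity for hormone and is itself a receptor target, read 14632 and 15087 with berberine, against 27134 and 21319 in control. The groups did not overlap, and the log2 change was -0.69 (SE 0.16, adjusted p = 0.0234, a 1.62-fold fall). The change was -0.50 in the deposited values (adjusted p = 0.275), -0.20 after scaling on the 75th percentile (adjusted p = 0.482) and 0.063 after centring (adjusted p = 0.800). Relative to the median of all probes Fkbp5 was at -0.86 after quantile normalization and at -0.45 under each of the other scalings. Without berberine replicate 1 or 2, adjusted p was 0.158 and 0.147.

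Tsc22d3, which encodes the glucocorticoid-induced leucine zipper protein, a transcriptional inhibitor, read 62019 and 56981 with berberine, against 50616 and 36713 in control. This was the only one of the 10 genes with both berberine arrays above both control arrays. The log2 change of 0.46 (SE 0.19, 95% interval -0.04 to 0.96) did not pass (adjusted p = 0.111). It passed after centring (1.25, adjusted p = 0.0124), after scaling on the 75th percentile (0.99, adjusted p = 0.0175) and without control replicate 1 (0.71, adjusted p = 0.0344). Its sign was positive under every scaling and every left-out array run, with a range of 0.23 to 1.25. Tsc22d3 and Fkbp5, both readouts of the same receptor, thus had opposite signs after quantile normalization, although the difference between the genes was not tested.

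**Figure D2:**
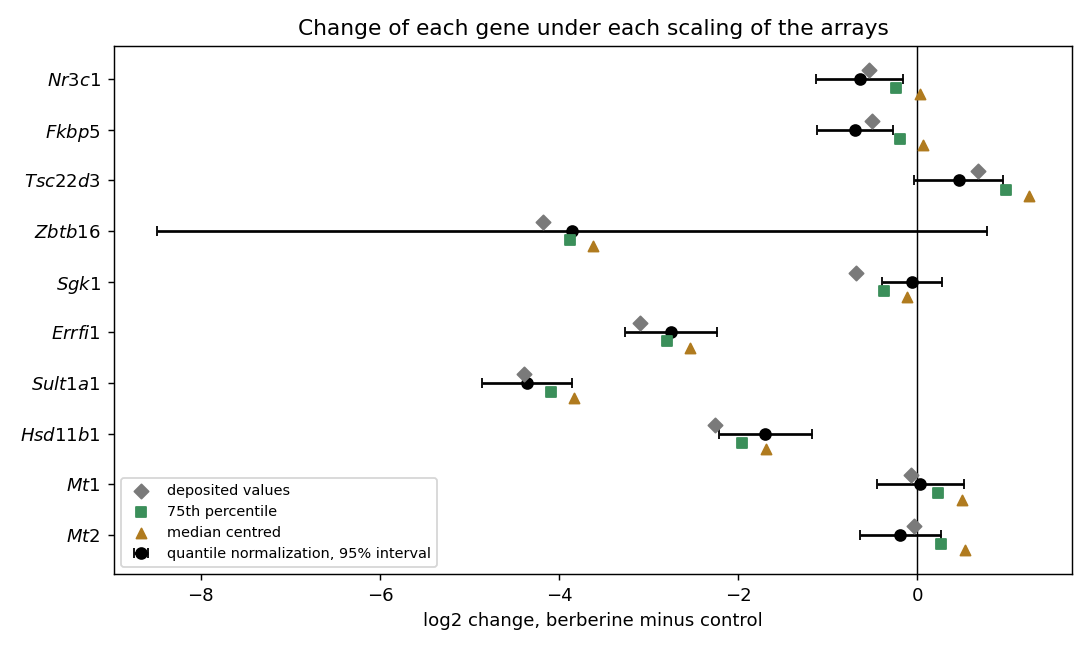
Log2 change (berberine minus control, horizontal axis) of each gene after quantile normalization, with its 95% interval (limma, 2 arrays per group), and as further points the change in the deposited values, after scaling on the 75th percentile and after centring on the median. Nr3c1, Fkbp5, Mt1 and Mt2 lie on both sides of 0 depending on the scaling. Sult1a1, Errfi1, Hsd11b1, Zbtb16 and Sgk1 lie below 0 and Tsc22d3 above 0 in all 4, with Sgk1 close to 0 after quantile normalization.

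Zbtb16, a zinc finger transcription factor that is strongly glucocorticoid-inducible in several cell types, was the gene on which the arrays of a group disagreed most. It read 29 and 1371 with berberine, against 2809 and 2927 in control. Both berberine arrays were below control, but berberine replicate 1 lay under the floor and the other did not, a difference of -5.59 on the log2 scale (replicate 1 minus 2). Among all genes, 99.99% had a smaller gap between the berberine arrays. The log2 change of -3.86 (SE 1.79, 95% interval -8.49 to 0.77) did not pass (adjusted p = 0.142). Without berberine replicate 1 the change was -1.02 (adjusted p = 0.0529), and without replicate 2 it was -6.87 (adjusted p = 0.0223), so 1 array decides its size. In the deposited values the same array read 24, against 1217 on the other berberine array.

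Sgk1, a kinase that acts on ion channels and transporters and is a classical early glucocorticoid target, is shown with promoter sequence because it was the only gene of the 10 with a full receptor motif in these windows. The windows, from RefSeq on build GRCm38.p6, run from 250 bases before to 50 after an annotated start, and 8 of the 10 genes had at least 1, with 16 windows in all. The inverted repeat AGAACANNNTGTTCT, searched on both strands, occurs in 3 of the 32851 windows of the table (0.00913%). One of these is the Sgk1 window chr10:21993640-21993939 on the plus strand, with the match in capitals.
Sgk1: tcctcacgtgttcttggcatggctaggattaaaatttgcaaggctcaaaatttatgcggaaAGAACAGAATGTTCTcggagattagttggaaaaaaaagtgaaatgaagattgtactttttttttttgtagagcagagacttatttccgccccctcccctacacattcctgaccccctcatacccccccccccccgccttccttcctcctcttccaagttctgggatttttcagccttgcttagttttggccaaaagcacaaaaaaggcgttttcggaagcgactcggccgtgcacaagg

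The match begins at position -189, counted in bases from that start. Its arms each also count as the single arm AGAACA, which was found in 5 of the 16 windows and in 19.0% of all windows. The other Sgk1 windows held no full match. At the Sgk1 probe, intensities were 658 and 680 with berberine, against 661 and 734 in control. The groups overlapped, and the log2 change was -0.06 (95% interval -0.39 to 0.27, adjusted p = 0.741). In the deposited values both berberine arrays, at 496 and 584, were below both control arrays, at 924 and 804, with a log2 change of -0.68 that also did not pass (adjusted p = 0.0845). Relative to the median of all probes Sgk1 was at -0.23 after quantile normalization and at -0.63 under each of the other scalings. A match is a description of letters and no evidence of binding, and whether the receptor occupied this window was not measured.

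Errfi1, a glucocorticoid-inducible adaptor that inhibits the epidermal growth factor receptor, fell in both berberine arrays. It read 527 and 707 with berberine, against 4518 and 3737 in control. The log2 change was -2.75 (SE 0.20, adjusted p = 0.000704, a 6.73-fold fall), and the call was kept under all 11 alternatives run, with changes of -3.10 to -2.44. Among all genes, 3.43% had a lower log2 change. The cyclic AMP response element TGACGTCA, a palindrome searched because the mixture raises cyclic AMP, occurs in 1.79% of all windows and in 1 of the 16 windows here, an Errfi1 window at chr4:150854820-150855119 on the plus strand, in capitals.
Errfi1: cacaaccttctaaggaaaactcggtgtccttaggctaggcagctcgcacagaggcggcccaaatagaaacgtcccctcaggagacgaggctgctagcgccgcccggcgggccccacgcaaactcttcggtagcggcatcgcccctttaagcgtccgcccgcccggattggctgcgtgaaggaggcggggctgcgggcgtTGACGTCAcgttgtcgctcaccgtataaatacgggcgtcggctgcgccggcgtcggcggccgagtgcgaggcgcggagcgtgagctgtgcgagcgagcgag

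The match begins at position -51 from the annotated start. Egfr, the receptor that the Errfi1 protein inhibits, was lower as well, with log2 intensities of 11.46 and 11.34 with berberine, against 12.14 and 12.53 in control (log2 change -0.94, adjusted p = 0.0117).

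Sult1a1, a sulfotransferase of phenols and catechols whose gene responds to glucocorticoids in rat liver, had the largest called fall of the 10. Its intensities were 2328 and 2352 with berberine, against 40459 and 56738 in control. The berberine arrays differed by 0.015 on the log2 scale and the control arrays by 0.49, far less than the gap between groups. The log2 change was -4.36 (SE 0.20, adjusted p = 0.000205, a 20.5-fold fall), and it lay between -4.70 and -3.83 over the 11 alternatives, past the threshold in each. Only 1.21% of genes had a lower change. Its 1 promoter window, chr7:126676369-126676668 on the minus strand, holds the single arm of the receptor motif at 2 places, a number that 2.54% of all windows reach. The sequence is shown because no other of the 10 genes fell as far, with the arms in capitals, where TGTTCT is AGAACA read on the opposite strand.
Sult1a1: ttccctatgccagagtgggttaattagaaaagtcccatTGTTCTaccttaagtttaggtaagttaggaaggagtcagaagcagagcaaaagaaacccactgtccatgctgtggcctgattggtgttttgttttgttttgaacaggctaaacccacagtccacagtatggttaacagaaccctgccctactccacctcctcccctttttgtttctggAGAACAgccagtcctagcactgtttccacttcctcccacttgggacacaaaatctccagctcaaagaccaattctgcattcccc

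The matches begin at positions -212 and -34 from the annotated start. Other sulfotransferases were dim on this array. Sult1b1, Sult1d1 and Sult1e1 lay under the floor in both groups, and Sult1c2, at log2 intensities of 9.12 and 9.04 with berberine, against 8.71 and 8.73 in control, did not pass (log2 change 0.36, adjusted p = 0.0641). Papss2, which makes the sulfate donor these enzymes use, was higher (log2 change 1.92, adjusted p = 0.00189), and Papss1, a second such enzyme, was at 0.06 (adjusted p = 0.759).

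Hsd11b1, the enzyme that regenerates active glucocorticoid from its inert keto form, was lower with berberine. It read 223 and 202 with berberine, against 578 and 816 in control, with no overlap. The log2 change was -1.69 (SE 0.20, adjusted p = 0.00296, a 3.24-fold fall), with a range of -2.26 to -1.44 over the alternatives. Without berberine replicate 1 or 2, adjusted p was 0.0546 and 0.0674, and the call was lost. H6pd, which supplies the cofactor for this reaction in the endoplasmic reticulum, was higher (13.40 and 13.20 with berberine, 12.58 and 12.59 in control on the log2 scale, log2 change 0.71, adjusted p = 0.0115). Hsd11b2, the enzyme of the opposite direction, was at 7.59 and 7.84 with berberine, against 7.95 and 8.17 in control, and did not pass (log2 change -0.34, adjusted p = 0.142).

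The metallothioneins, small cysteine-rich proteins that bind zinc and copper, were not called in either direction. Mt1 read 199266 and 270068 with berberine, against 238359 and 214692 in control. The groups overlapped, with a log2 change of 0.04 (95% interval -0.45 to 0.53, adjusted p = 0.892). Mt2 read 97407 and 73387 with berberine, against 98328 and 94169 in control. Here too the arrays overlapped, and the log2 change was -0.19 (95% interval -0.64 to 0.27, adjusted p = 0.433). Neither interval reaches a 2-fold change, but after centring both genes were higher by 0.50 and 0.53 without passing, against 0.52 for all probes. The genes lie side by side on chromosome 8, Mt2 at chr8:94172618-94173567 and Mt1 at chr8:94178883-94180327 (GRCm38.p6). Related genes can share array signal, and no probe sequence was used here to check this.

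The metal response element, to which the zinc sensor Mtf1 binds, was searched as TGCACNC and TGCGCNC on both strands. It occurs in 25.7% of all windows, and 4 of the 16 windows here hold it. Mt2 has 4 matches, a number that 0.517% of all windows reach, and Mt1 has 3. The Mt2 window is set on the first base of the Mt2 interval given above. The Mt1 window is set on an annotated start that lies inside the Mt1 interval, so the match counts do not come from like positions. Both sequences are shown, matches in capitals, from chr8:94178839-94179138 for Mt1 and chr8:94172368-94172667 for Mt2, both on the plus strand.
Mt1: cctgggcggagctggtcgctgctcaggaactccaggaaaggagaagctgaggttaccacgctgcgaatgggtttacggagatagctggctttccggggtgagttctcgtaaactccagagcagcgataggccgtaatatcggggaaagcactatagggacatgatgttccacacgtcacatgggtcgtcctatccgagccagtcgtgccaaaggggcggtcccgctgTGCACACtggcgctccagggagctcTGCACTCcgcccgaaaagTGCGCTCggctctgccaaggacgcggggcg
Mt2: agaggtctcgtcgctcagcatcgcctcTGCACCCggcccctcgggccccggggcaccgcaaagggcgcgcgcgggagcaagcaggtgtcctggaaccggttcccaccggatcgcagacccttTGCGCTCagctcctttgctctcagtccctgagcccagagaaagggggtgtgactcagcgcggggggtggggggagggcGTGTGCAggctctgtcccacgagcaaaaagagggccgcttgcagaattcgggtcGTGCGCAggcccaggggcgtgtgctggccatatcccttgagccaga

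No full receptor motif was found in either window, which says only that these letters are not in it. Mtf1 was higher with berberine, with log2 intensities of 11.28 and 11.28, against 10.41 and 10.05 in control (log2 change 1.05, adjusted p = 0.00682), and its dimmer probe was higher as well (0.50, adjusted p = 0.0253). Slc30a1, a zinc exporter and known Mtf1 target, was lower (9.65 and 9.49 with berberine, 11.27 and 10.67 in control, log2 change -1.41, adjusted p = 0.00773).

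**Figure D3:**
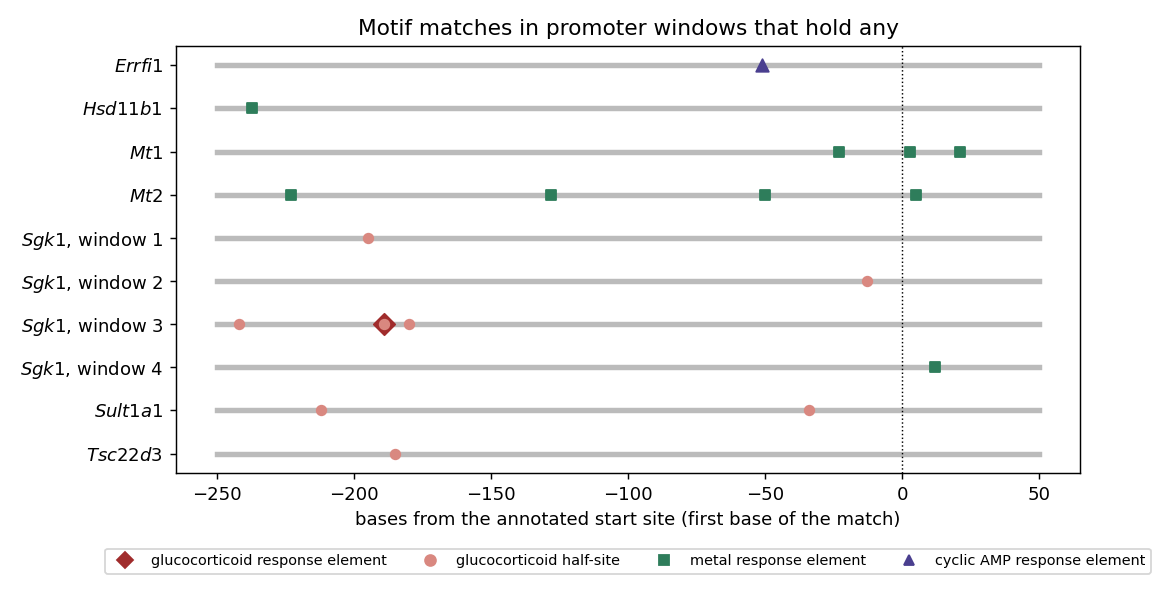
First base of each motif match (horizontal axis, bases from the annotated start site) in the 10 promoter windows, of 16, that hold any; grey lines are the windows of 300 bases and the symbols stand for the 4 motifs, where a half-site is the single arm AGAACA. The full receptor motif appears in 1 Sgk1 window only, and metal response elements are most frequent in Mt2 and Mt1.

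The 122 other genes of the pathway that were measured, in 6 lists, moved both ways. Of these, 47 were higher (38.5%), 33 lower (27.0%) and 42 did not pass. Over all genes, 30.0% were higher and 18.2% lower. The median log2 change was 0.19, against 0.20 over all genes. The split of higher and lower was 25 and 26 in the deposited values, 61 and 20 after centring, 15 and 13 without berberine replicate 1 and 13 and 12 without berberine replicate 2. Of all 26408 probes, 2396 were higher and 4291 lower in the deposited values, and 10694 higher and 3311 lower after centring. The lists were chosen with earlier results of these data known, and some of their genes have further regulators.

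Among 39 glucocorticoid-induced targets, 16 were lower, 11 higher and 12 did not pass, with a median log2 change of -0.30 (0.29 after centring, against 0.55 for all genes then). The shares lower and higher were 41.0% and 28.2%, against 18.2% and 30.0% of all genes. After centring, 9 were lower and 14 higher, where 3311 of all 26408 probes were lower and 10694 higher. Mgst1, a microsomal glutathione transferase, was at 9.63 and 9.75 on the log2 scale with berberine, against 16.43 and 16.16 in control, a 97.3-fold fall (adjusted p = 6.65e-05). Lpin1, a phosphatidate phosphatase, fell 9.58-fold and Glul, glutamine synthetase, 5.11-fold. Nfkbia, the inhibitor of NF-kappaB that glucocorticoids induce, fell 3.99-fold (adjusted p = 0.000520). Others of the same list rose. Tgm2, a transglutaminase, rose 5.82-fold, Ccn2, a matrix-associated growth factor, 5.55-fold and Arid5b, a chromatin regulator under the floor in control, at least 5.48-fold. Dusp1, a MAP kinase phosphatase used as a readout of the receptor, was higher (13.20 and 13.21 with berberine, 12.15 and 11.65 in control, log2 change 1.31, adjusted p = 0.00613). Per1, a clock gene, and Klf9, a zinc finger factor, are common readouts too, and changed by 0.13 (adjusted p = 0.525) and -0.07 (adjusted p = 0.790), with overlapping groups.

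Of 23 measured targets that glucocorticoids repress, 11 were higher, 5 lower and 7 did not pass, with a median log2 change of 0.54 (0.12 in the deposited values, against -0.02 for all genes). The shares higher and lower were 47.8% and 21.7%, against 30.0% and 18.2% of all genes. In the deposited values 6 were higher and 4 lower, where 2396 of all 26408 probes were higher and 4291 lower. Ptgs2, an inducible prostaglandin synthase, read 12.06 and 12.07 on the log2 scale with berberine, against 8.73 and 9.11 in control, an 8.85-fold rise (adjusted p = 0.000306). Il6, a cytokine, rose 5.20-fold and Mmp13, a collagenase, 3.85-fold. In the same list the chemokine genes Ccl2 and Ccl7 fell 5.49-fold and 2.10-fold, and Jun, an AP-1 subunit, fell 3.13-fold. Both lists thus held genes called in each direction.

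**Figure D4:**
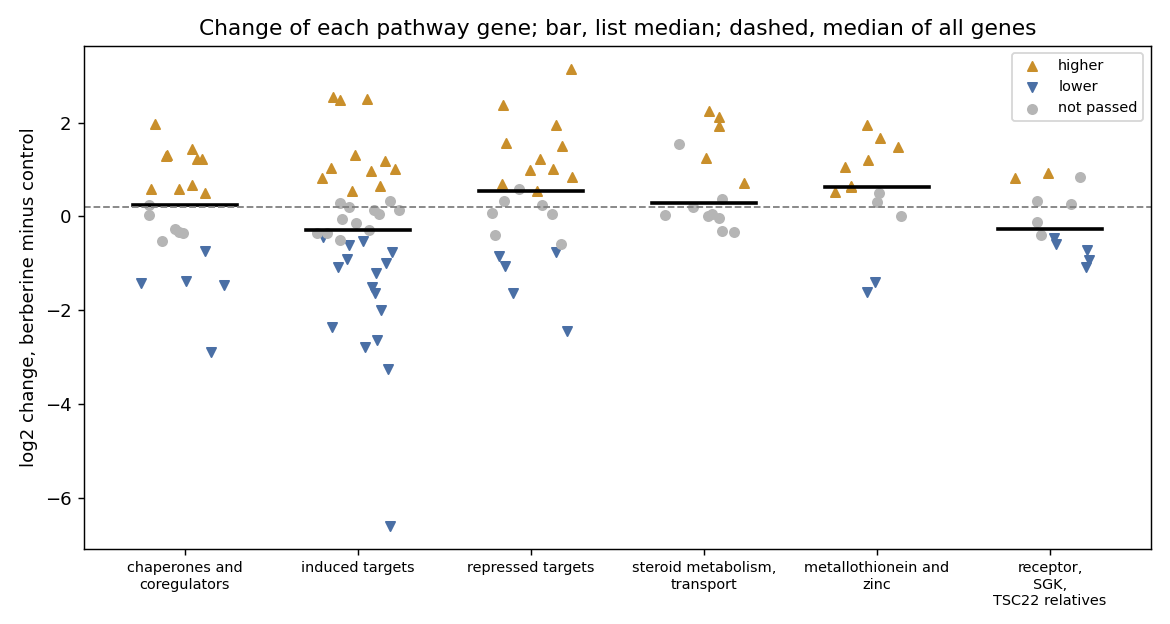
Log2 change (berberine minus control, vertical axis) of each measured gene of the 6 lists, with triangles for genes past adjusted p 0.05 and circles for the rest; horizontal offsets carry no value. Each list holds genes on both sides of 0, list medians run from -0.30 to 0.63, and the dashed line is the median of all genes, 0.20.

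Chaperones and coregulators of the receptor, 21 of 25 measured, had 10 genes higher, 5 lower and 6 that did not pass. The shares higher and lower were 47.6% and 23.8%, against 30.0% and 18.2% of all genes. Hsp90ab1, a subunit of the chaperone that holds the receptor, was at 16.93 and 17.00 with berberine, against 16.77 and 16.70 in control (log2 change 0.23, adjusted p = 0.185). Fkbp4, the co-chaperone that competes with the Fkbp5 protein, changed by 0.03 (adjusted p = 0.891). Stip1, which hands clients between heat shock proteins, fell 7.46-fold (11.78 and 11.70 with berberine, 14.63 and 14.65 in control, adjusted p = 0.000165). The coactivators Ncoa1 and Ncoa3 went apart, with a 2.59-fold fall and a 2.71-fold rise, and Nrip1, a corepressor, fell 2.67-fold. Smarca4, a chromatin remodelling ATPase, rose 2.48-fold and Stub1, a chaperone-linked ubiquitin ligase, 3.89-fold.

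In the list of steroid metabolism and transport, 5 of 14 measured genes were higher and 0 lower. The share higher was 35.7%, against 30.0% of all genes, of which 18.2% were lower. At an unadjusted p under 0.05 the number lower was also 0. In the deposited values 3 were higher and 1 lower, where 2396 of all 26408 probes were higher and 4291 lower. Hsd11b1 and Sult1a1, both called lower, belong to the 10 genes and were not counted in this list. Abcb1a, an efflux pump that carries dexamethasone among other drugs, was under the floor in control and rose at least 3.45-fold (8.27 and 8.45 with berberine, 6.20 and 6.29 in control, adjusted p = 0.000488). Por, the electron donor of microsomal cytochromes, rose 4.74-fold. Among 13 metallothionein and zinc genes 8 were higher and 2 lower (61.5% and 15.4%, against 30.0% and 18.2% of all genes). The rises with the smallest p were at the zinc transporters Slc39a13 (3.84-fold), Slc39a10 (2.78-fold) and Slc30a4 (3.19-fold), while Slc39a14 fell 3.05-fold. Among 12 relatives of the receptor, of the SGK kinases and of the TSC22 and FKBP families, 2 were higher and 5 lower. These are 16.7% and 41.7%, against 30.0% and 18.2% of all genes. After centring, 3 were higher and 1 lower, where 10694 of all 26408 probes were higher and 3311 lower. Nr3c2, the mineralocorticoid receptor, which also binds glucocorticoids, was dim and lower (7.85 and 7.95 with berberine, 8.98 and 8.98 in control, log2 change -1.08, adjusted p = 0.00255). Tsc22d2, a relative of Tsc22d3, rose 1.76-fold (adjusted p = 0.00888), and Fkbp1a fell 1.64-fold (adjusted p = 0.0219).

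**Figure D5:**
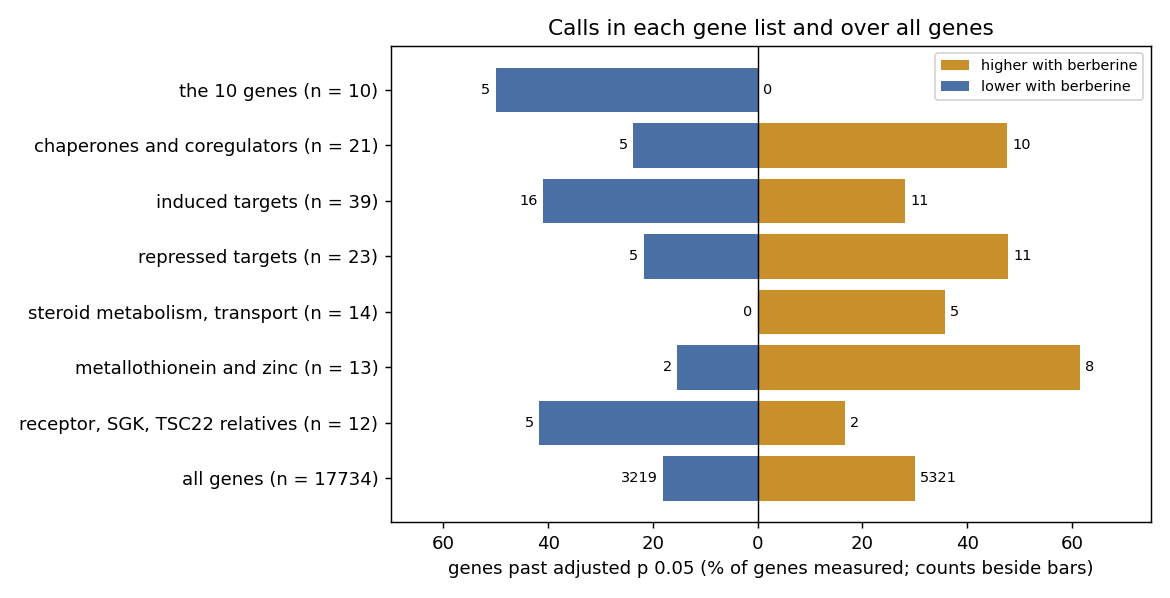
Share of measured genes past adjusted p 0.05 (horizontal axis, percent), higher to the right and lower to the left, with counts beside the bars, for the 10 genes, the 6 lists and all genes. The 10 genes show 5 lower and 0 higher, against 18.2% and 30.0% of all genes.

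RNA of adipocyte markers was mostly lower with berberine, while preadipocyte and fibroblast markers went both ways. Of 10 adipocyte markers 7 were lower and 1 higher with berberine, and their summed intensity was 38343 to 40814, against 643209 to 661662 in control. Of 8 measured preadipocyte and fibroblast markers 4 were higher and 3 lower (summed 283662 to 286659 with berberine, 379472 to 408715 in control). Of 7 macrophage markers 1 was higher and 2 lower (14.3% and 28.6%). They summed to 3770 to 3846 with berberine, against 10508 to 11718 in control. Adgre1, which defines macrophages, was under the floor in both groups. Of 6 endothelial markers 3 were higher and 0 lower, of 5 epithelial markers 0 and 1, and of 3 muscle markers 1 and 0. Endothelial, epithelial and muscle markers summed to 1538 to 2628 with berberine, against 947 to 2970 in control, per list. The part of these shifts in the changes of Hsd11b1, Sult1a1, Errfi1 and the other genes was not tested. In such bulk samples, fewer cells of a type and less RNA per cell cannot be told apart.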

How the data were processed

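Cy5-labelled RNA of 4 samples of 3T3-L1 cells was measured on arrays with 1 colour, per the labels. The authors deposited whole-number intensities on a linear scale, and how they scanned, background-corrected or scaled them is not given in the sources used. Groups and replicate numbers came from the sample titles. Of 26423 probes, 20377 carried 1 gene symbol and 6046 none here. Values of 0 or less occurred at 15 probes, which were dropped. Log2 intensities were quantile-normalized and fitted with limma 3.58.1 in R 4.3.3 (lmFit, eBayes, 2 residual and 2.89 prior degrees of freedom), with Benjamini-Hochberg adjustment over 26408 probes. The fit was also run on simulated arrays with known changes at a small share of probes, equal in number up and down. Far more probes passed in the real data, so that run does not test the normalization under such a shift.

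The brightest probe stood for each gene (17734 genes). Folds against a group under the floor are written "at least". The number of arrays, 2 per group, limits the precision, and an exact permutation test of such groups cannot pass 0.05. Named genes were the 10 genes, 11 fixed genes where measured, and up to 3 higher and 3 lower genes with the smallest p in each list, among those with groups that did not overlap. Marker genes, Papss1 and the other sulfotransferases were named after their values were seen. The 10 genes, the lists, the floor and the scaling were chosen with earlier results of these data known. Samples with the same replicate number were not treated as pairs: deviations of same-numbered arrays correlated at 0.0035 across probes. Alternatives were other scalings, the replicate block, limma-trend, a pseudocount of 16, a filter on dim probes, a 2-fold limit, averaged probes and each array left out. Promoter sequences are RefSeq's on GRCm38.p6.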

Additional observations from a re-analysis of the deposited data

How the results depend on the processing

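Over all probes, 7164 were higher and 4674 lower. In the deposited values 2396 were higher, and with a 2-fold limit 2863 were higher and 2943 lower. Fits with an array left out gave 1218 to 6545 higher and 2128 to 4242 lower. Among the 10 genes, 1 was higher with median centring or 75th percentile scaling, against 0 with quantile normalization. The number lower was 3, in place of 5, in the deposited values, after either scaling and with a 2-fold limit, and 2 to 5 (0 to 1 higher) with an array left out. Of the 122 pathway genes, 47 were higher and 33 lower. The deposited values gave 25 higher, centring 20 lower, the 2-fold limit 29 higher and 21 lower, and left-out arrays 13 to 46 higher and 12 to 32 lower. Fewer samples leave 1 residual degree of freedom in those fits, where the lone array is assumed to vary like the other group; the cause of the other shifts was not tested. In the single lists, counts moved by over 1.5 times in 47 comparisons with an alternative and stayed within that in 109.

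Nr3c1 was at -0.54 in the deposited values, -0.23 on the 75th percentile and 0.026 after centring, and at -0.87 to -0.43 with an array left out. Fkbp5 was at -0.50, -0.20 and 0.063 under the same scalings, and at -0.87 to -0.53. Tsc22d3 was at 1.25 after centring, 0.99 on the 75th percentile and 0.23 to 0.71 with an array left out. Left-out arrays put Hsd11b1 at -1.91 to -1.44, Sgk1 at -0.14 to 0.018, Mt1 at -0.19 to 0.22 and Mt2 at -0.39 to 0.018. Mt1 was at -0.070 in the deposited values, and Mt2 at 0.53 after centring and 0.27 on the 75th percentile. With the replicate block Zbtb16 passed (-3.86, adjusted p = 0.000159), as that fit leans on 16.4 prior degrees of freedom against 1 residual, and with an array left out it was at -6.87 to -1.02. Sult1a1 and Errfi1 passed in all alternatives.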

Other observations

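At several of the 10 genes the berberine arrays differed from each other by less than the 2 control arrays did. Replicate 1 minus replicate 2 was 0.14, -0.015, -0.13, 0.12 and -0.044 on the log2 scale for the berberine arrays at Hsd11b1, Sult1a1, Nr3c1, Tsc22d3 and Fkbp5. For the control arrays it was -0.50, -0.49, -0.44, 0.46 and 0.35 at the same genes. The median difference between arrays of a group, over 8966 probes above log2 10 in control, was 0.0884 for berberine and 0.259 for control. Zbtb16, Errfi1, Mt1 and Mt2 showed the opposite order of spread. Their differences were -5.59, -0.43, -0.44 and 0.41 between the berberine arrays, against -0.06, 0.27, 0.15 and 0.06 between the control arrays.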
